A study of Drosophila melanogaster with 6 samples.

Results

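Transcripts of 8 genes of the Drosophila visceral mesoderm, the tissue that forms the gut muscle, were followed in cells sorted by a mesodermal reporter. Embryos with and without an excess of the forkhead factor Jumu were compared. The genes were jeb, Alk, org-1, bap, HLH54F, Con, mib2 and Fas3, and the probe sets used were those that the platform annotation gives to exactly 1 of them. This found 7 of the 8 genes, each with 1 probe set, among 11982 genes measured in all. No probe set was given to Fas3 alone, and that gene was not analysed here.

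RNA came from GFP-positive cells of Drosophila melanogaster embryos aged at 29 °C to the end of stage 11 or the start of stage 12, with 3 arrays for each of 2 genotypes. In the UAS-jumu group (twi-GAL4 UAS-2EGFP/UAS-jumu) the twist driver switched on both GFP and jumu. In the control group (twi-GAL4 UAS-2EGFP) it switched on GFP alone. All 6 arrays therefore carry the driver and the reporter, which act throughout the Twist-expressing mesoderm, so visceral cells were not separated from somatic, cardiac or other mesodermal cells. No transgene is named for the control in the place of UAS-jumu. Replicates are numbered in the labels, but whether each was a separate collection of embryos is not said, so every p-value here reflects the spread among these arrays alone and that spread may be technical.

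In the trunk of the embryo the homeodomain factor Bap and its forkhead target Biniou set up the visceral mesoderm. The secreted protein Jelly belly (jeb), made by neighbouring somatic mesoderm, then activates the receptor tyrosine kinase Alk on visceral cells. Cells that receive the signal become founder cells of the circular gut muscles and switch on genes such as org-1, Hand and kirre, while the others stay fusion-competent. Longitudinal gut muscles arise elsewhere, from the caudal visceral mesoderm, which needs the factor HLH54F and migrates under FGF signals.

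The check on the labels was the jumu transcript, whose log2 signal was 13.56 ± 0.18 in UAS-jumu arrays and 11.45 ± 0.11 in controls (SD, n = 3 each). The fitted log2 change was 2.11 ± 0.14 (SE, limma adjusted p = 0.0165). Of the early mesodermal markers, twi had a log2 signal of 9.90 ± 0.13 in UAS-jumu arrays and 9.20 ± 0.28 in controls (SD, n = 3 each), and zfh1 had 12.78 in UAS-jumu arrays and 12.79 in controls. The neuronal gene elav was also far above background in both groups, at 12.44 ± 0.03 in UAS-jumu arrays and 13.32 ± 0.02 in controls (SD, n = 3 each). The epidermal gene grh had 10.36 in UAS-jumu arrays and 11.52 in controls, so the RNA cannot be taken as purely mesodermal.

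All 7 genes had a positive fitted change, as did 48.8% of all genes, and the ligand gene jeb and the T-box gene org-1 had the largest of them. The 3 UAS-jumu values lay above all 3 control values in 5 of the 7 genes, jeb, org-1, bap, HLH54F and Con. Groups did not overlap, with UAS-jumu higher, in 16.6% of all genes and in 25% of the 6464 genes whose mean log2 signal exceeded 6. By limma with Benjamini-Hochberg adjustment over 18769 probe sets, 0 of the 7 genes passed a threshold of 0.05, which 2.77% of all probe sets and 3.32% of all genes passed (1.61% upward and 1.71% downward). The same fit gave 5 of 7 at an unadjusted p under 0.05, all higher. Over all genes 10.8% were higher at that level and 11.7% lower. Those shares include dim genes, while only 1 of the 7, Alk, has a mean under 6. Dim probe sets passed the adjusted threshold less often, 1.17% with a mean between 3 and 6 against 5.96% between 6 and 9. The shares at these 2 levels of p were not computed for genes with a mean over 6 alone. With an intensity trend in the variance prior, which lets the expected spread depend on brightness, 5 of the 7 passed, against 21.2% of all genes in either direction and 10.3% in the upward direction (10.9% downward). Among genes with a mean over 6, the share called higher with the trend was 18.1%. The 7 genes had a median log2 change of 0.42, beside -0.01 over all genes. Values here are log2 signals after quantile normalization between arrays, and every change is relative to that scaling unless another is named.

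**Figure D1:**
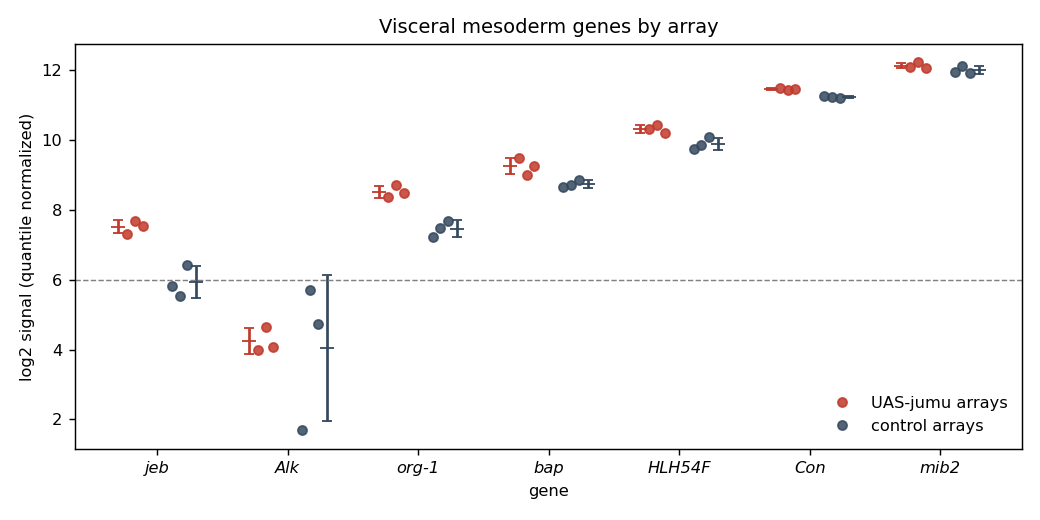
Log2 signal (vertical axis, quantile normalized) of each of the 7 genes on the 3 UAS-jumu arrays (red, left of each pair) and the 3 control arrays (dark, right). Dots are arrays, bars are mean ± SD, and the dashed line marks a log2 signal of 6; jeb, org-1, bap, HLH54F and Con show no overlap between genotypes, while Alk lies under the line on all arrays.

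The ligand gene jeb had the largest fitted change of the 7. Its log2 signal was 7.31, 7.68 and 7.54 on the UAS-jumu arrays, against 5.83, 5.52 and 6.42 on the control arrays. The lowest UAS-jumu array thus lay 0.89 above the highest control array, and 2 of the 3 controls were below 6. Under that level replicates differ widely: the median SD within a genotype was 1.13 for probe sets with a mean between 3 and 6, and 0.20 between 6 and 9. The log2 change was 1.59 ± 0.27 (SE), about 3.01-fold, with a 95% interval of 0.89 to 2.29 and a limma adjusted p of 0.0598. Because the control signal reaches the dim range, the size of the change is less certain than its interval states. The adjusted p was 0.000828 with the intensity trend, where the standard error of jeb was slightly larger, 0.30.

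The receptor gene Alk gave no measurable difference, and its probe set was dim on every array. The log2 signal was 3.98, 4.65 and 4.08 on the UAS-jumu arrays, against 1.69, 5.70 and 4.73 on the control arrays. The control values span the UAS-jumu values on both sides, and control replicate 1 stands far below the other 2. The log2 change was 0.20 ± 1.11 (SE, limma adjusted p = 0.954). Its 95% interval, -2.66 to 3.06, admits a change of several-fold either way, so these arrays do not tell whether the receptor transcript moved with that of its ligand. Without control replicate 1 the change was -0.99 and without control replicate 2 it was 1.02, and it was -0.018 without UAS-jumu replicate 2 and -0.11 in the values as deposited, so its sign is not settled. The dim signal of 1 probe set does not show that Alk is silent in these cells.

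The T-box gene org-1, which acts downstream of Alk in visceral founder cells and also marks some somatic muscle founders, was higher on every UAS-jumu array. Its log2 signal was 8.35, 8.69 and 8.48 there, against 7.22, 7.47 and 7.68 on the control arrays. The lowest UAS-jumu array lay above the highest control by more than the SD of either group, 0.17 in UAS-jumu arrays and 0.23 in controls. The log2 change was 1.05 ± 0.17 (SE), or 2.07-fold, with a 95% interval of 0.61 to 1.50 and a limma adjusted p of 0.0562. This gene is measured well above the dim range in both groups. Larger positive changes were found in 1.44% of the genes with a mean over 6. With the intensity trend the adjusted p was 0.000108, and it stayed between 0.000125 and 0.00222 when any 1 array was left out of that fit.

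Of the transcription factor genes that establish visceral mesoderm, bap and HLH54F showed smaller differences. The log2 signal of bap, the NK-family homeodomain gene of the trunk visceral mesoderm, was 9.47, 8.996 and 9.26 on the UAS-jumu arrays, against 8.64, 8.70 and 8.86 on the control arrays. The nearest arrays of the 2 groups were only 0.14 apart. The log2 change of bap was 0.51 ± 0.16 (SE, 95% interval 0.09 to 0.92, limma adjusted p = 0.183). With the intensity trend the adjusted p was 0.00503, and it was 0.0571 there without UAS-jumu replicate 1, the array with the highest bap signal.

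HLH54F, the basic helix-loop-helix gene of the caudal visceral mesoderm, had a log2 signal of 10.29, 10.42 and 10.18 on the UAS-jumu arrays, against 9.74, 9.84 and 10.06 on the control arrays. The groups did not overlap, and their nearest arrays were 0.12 apart. The log2 change was 0.42 ± 0.14 (SE, 95% interval 0.07 to 0.77, limma adjusted p = 0.192). It had an adjusted p of 0.00206 with the intensity trend, and of 0.000536 to 0.021 when 1 array at a time was left out of that fit.

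The remaining pair, Con and mib2, had bright, tightly measured probe sets and the smallest differences apart from Alk. Con encodes Connectin, a leucine-rich repeat adhesion protein of the cell surface that is found on muscles and on motor neurons as well as in visceral mesoderm. Its log2 signal was 11.48, 11.42 and 11.45 on the UAS-jumu arrays, against 11.25, 11.21 and 11.19 on the control arrays. The SD was 0.03 within each group, and every UAS-jumu array was higher than every control. The log2 change was 0.23 ± 0.09 (SE, 95% interval 0.01 to 0.46, limma adjusted p = 0.245), or 1.18-fold. Its standard error was 0.05 with the intensity trend, and the adjusted p there was 0.00421.

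The gene mib2 encodes an E3 ubiquitin ligase that muscle founder cells make and that keeps muscles intact. Its log2 signal was 12.09, 12.21 and 12.05 on the UAS-jumu arrays, against 11.94, 12.12 and 11.91 on the control arrays. Control replicate 2 lay above 2 of the 3 UAS-jumu arrays, so the groups overlapped. The log2 change was 0.12 ± 0.11 (SE, 95% interval -0.16 to 0.41, limma adjusted p = 0.625), and 0.212 was the adjusted p with the intensity trend. Larger positive changes were present in 34.1% of genes with a mean over 6.

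**Figure D2:**
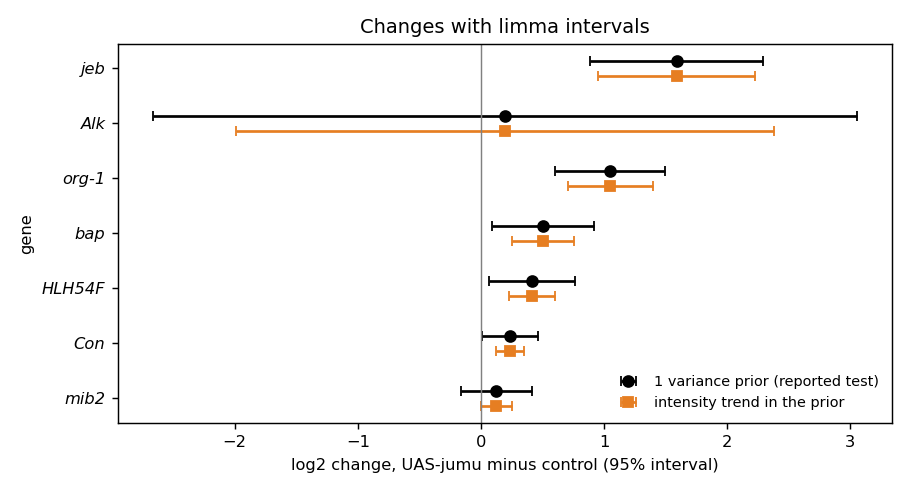
Log2 change, UAS-jumu minus control (horizontal axis), of each gene with its 95% limma interval, with 1 variance prior for all probe sets (black) and with an intensity trend in the prior (orange). With 1 prior the intervals of jeb, org-1, bap, HLH54F and Con lie above 0 before adjustment for multiple tests, and that of Alk runs from -2.66 to 3.06.

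Replicate spread depended on brightness. The median SD within a genotype was 0.09 for probe sets with a mean log2 signal between 9 and 12 and 0.05 above 12, against 1.13 between 3 and 6. The shared variance prior had 0.94 degrees of freedom and the prior with a trend up to 13.7, so the 2 forms of the test differ in the weight of the prior as well as in its shape. In proportion, the trend lowered the standard error most for the bright genes mib2 (0.06 in place of 0.11) and Con (0.05 in place of 0.09), and it raised that of jeb.

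**Figure D3:**
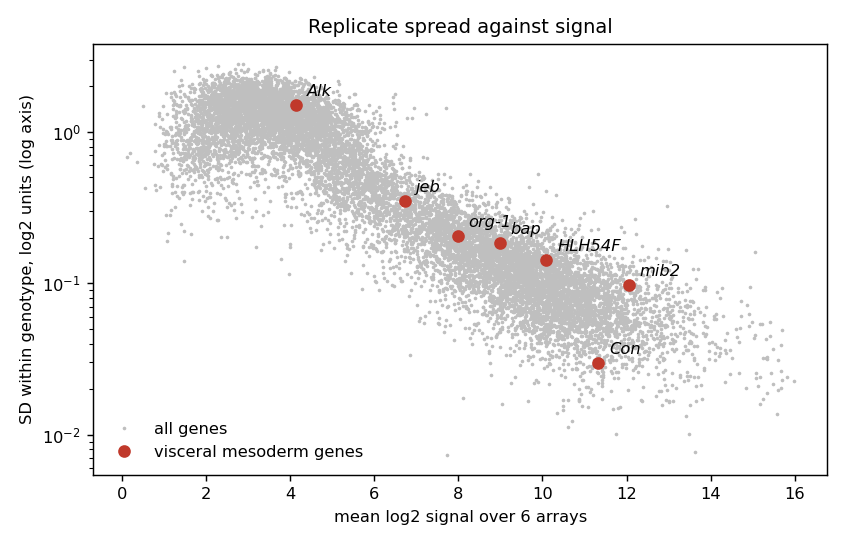
SD within a genotype (vertical log axis, log2 units) against mean log2 signal over the 6 arrays for all genes (grey) and the 7 visceral mesoderm genes (red). Spread falls with signal, Alk lies in the dim, noisy range, and Con is among the tightly measured bright genes.

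The direction of 6 of the 7 genes was the same under every scaling of the arrays that was tried. Scaling moved the median change of all genes, which was -0.01 as reported, -0.08 in the values as deposited, 0.19 with median centring, 0.49 after a shift to hybridization spike-in controls and 0.84 after a shift to poly-A spike-in controls. All of these but quantile normalization shift every gene of an array alike, so a change minus that median has only 2 distinct values, one for quantile normalization and one for the others. For jeb they were 1.60 and 1.51, for org-1 1.06 and 1.11, for bap 0.52 and 0.61, and for HLH54F 0.43 and 0.51. For Con they were 0.25 and 0.34, for mib2 0.14 and 0.21, and for Alk, the exception in sign, 0.21 and -0.04.

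**Figure D4:**
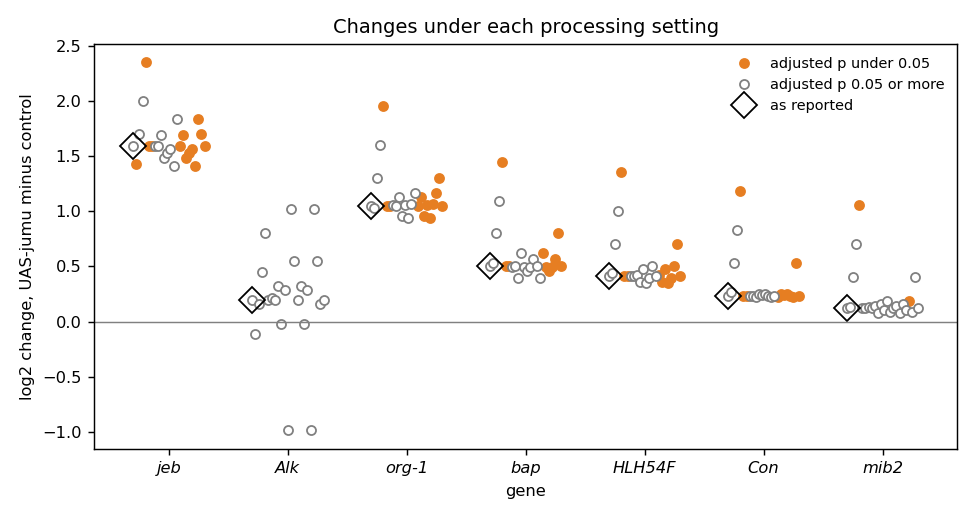
Log2 change, UAS-jumu minus control (vertical axis), of each gene under every processing setting, with the reported value as a diamond and orange dots for settings with an adjusted p under 0.05. Only Alk crosses 0, and the highest value of every other gene comes from the shift to poly-A controls, under which the median of all genes was 0.84.

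Among other genes of the trunk visceral mesoderm, 1 of 17 measured rose and 0 fell, with 16 that did not pass. The median log2 change was 0.07 (0.018 without control replicate 1, 1.00 after the poly-A shift). Of the 17, 10 had a positive and 7 a negative change, an unadjusted p under 0.05 was reached by 5 that were higher and 3 that were lower, and 5 were higher and 2 lower with the intensity trend. The lower 2 were betaTub60D, a tubulin gene of the mesoderm, at -0.24 ± 0.09 (SE, limma adjusted p = 0.249), and Vrp1, an actin regulator of myoblast fusion, at -0.27 ± 0.10 (SE, adjusted p = 0.253). The gene that rose was sns, an immunoglobulin-family receptor of fusion-competent myoblasts in gut and body wall, with a log2 change of 0.94 ± 0.11 (SE, limma adjusted p = 0.0329). Its log2 signal was 9.98, 10.16 and 10.14 on the UAS-jumu arrays, against 9.24, 9.16 and 9.08 on the controls. The forkhead gene bin, the target of Bap, missed the threshold with 0.67 ± 0.11 (SE, adjusted p = 0.0578). The bin arrays did not overlap, at 9.51, 9.44 and 9.30 in the UAS-jumu group against 8.74, 8.67 and 8.84 in controls, and its adjusted p was 7.09e-05 with the intensity trend. The founder receptor gene kirre, which Alk signalling switches on, had 0.40 ± 0.10 (SE, adjusted p = 0.126). The guidance ligand gene sli stayed below a log2 signal of 6 on all arrays, too dim for its change to be sized. There were 3 probe sets for bin and 2 each for kirre and sli, and only the brightest of each is reported here. Hand, another founder gene downstream of Alk, had 0.09 ± 0.10 (SE, adjusted p = 0.710), so the 3 founder genes org-1, kirre and Hand had fitted changes of 1.05, 0.40 and 0.09.

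In the list for caudal and longitudinal visceral mesoderm, 1 of 10 rose, 1 fell and 8 did not pass, with a median of -0.06 that was 0.041 without control replicate 3 and became 0.16, 0.45 and 0.81 under median centring and the hybridization and poly-A shifts. This list shares fkh and cad with the endoderm list below, and pyr and ths with the epidermal and tracheal list. Its median is therefore not a reading of caudal visceral mesoderm alone, and the fall of pyr is counted in both lists. The FGF receptor gene htl, which the migrating caudal cells use, rose by 1.03 ± 0.11 (SE, limma adjusted p = 0.0307). These arrays do not tell which of the sorted cells carried that rise. The FGF ligand gene pyr, made mostly outside the mesoderm, fell by 0.87 ± 0.12 (SE, adjusted p = 0.0394), with a log2 signal of 6.78, 6.99 and 7.02 on the UAS-jumu arrays, against 7.77, 7.88 and 7.75 on the controls. The forkhead gene croc, active in caudal visceral mesoderm, had a log2 signal of 6.54 ± 0.53 in UAS-jumu arrays and 4.67 ± 1.04 in controls (SD, n = 3 each), with an adjusted p of 0.194. The T-box gene byn, of the hindgut and the caudal visceral mesoderm, had 5.75 ± 0.07 in UAS-jumu arrays and 6.49 ± 0.34 in controls (SD, n = 3 each, limma adjusted p = 0.139).

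Among 18 other measured genes of Alk signalling, 0 rose and 0 fell, although 15 had a positive change and 6 were higher at an unadjusted p under 0.05 (0 lower), beside 48.8% positive and 10.8% higher over all genes. The median log2 change was 0.11 (1.06 after the poly-A shift), and 7 were called higher with the intensity trend, with 0 lower. Every gene of this list had a mean over 6, and of all such genes 18.1% were called higher with the trend. The shares with a positive change or an unadjusted p under 0.05 were not computed for such genes alone. Hand, kirre and dpp are also counted in the trunk visceral list. The smallest p belonged to dos, an adaptor of receptor tyrosine kinases, with 0.57 ± 0.13 (SE, limma adjusted p = 0.0997). After it came kirre, then aop, the ETS repressor that MAP kinase inactivates (0.33 ± 0.09 SE, adjusted p = 0.143), and cnk, a scaffold of the Raf kinase (0.36 ± 0.11 SE, adjusted p = 0.166). The other proposed ligand genes of Alk, miple1 and miple2, had 0.08 and -0.16 (adjusted p = 0.753 and 0.515). Neither came near the change of jeb, although those differences between genes were not tested.

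**Figure D5:**
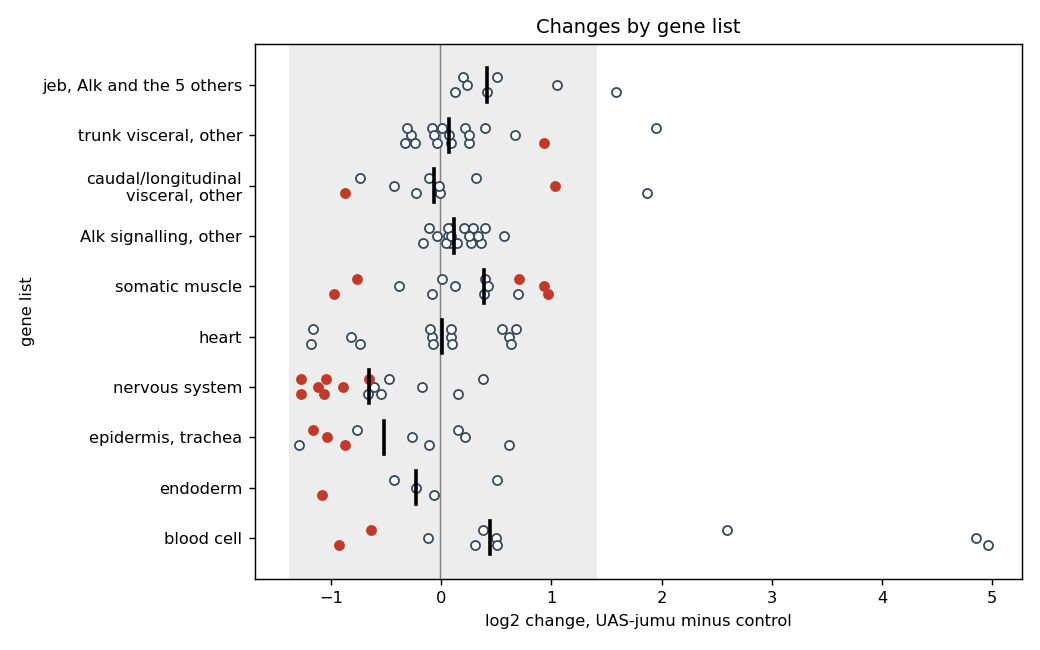
Log2 change, UAS-jumu minus control (horizontal axis), of each measured gene by list, with filled red dots for genes past the limma threshold, black bars for list medians and a grey band for the central 90% of all genes. The 7 visceral mesoderm genes lie at or above 0.12 with none past the threshold, while most nervous system genes lie below 0.

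Markers of other cells moved between the genotypes too, and their part in the changes above was not tested. Of 14 nervous system genes 7 fell and 0 rose, 12 had a negative change and the median was -0.66 (0.19 after the poly-A shift). Their summed linear signal was 20382 to 20564 on UAS-jumu arrays and 33807 to 34691 on controls; brp and nSyb were under a log2 signal of 6. The smallest p belonged to fne, D and nerfin-1, with log2 changes of -1.27, -1.27 and -1.06. Of 10 epidermal and tracheal genes 3 fell (grh, kni and pyr) and 0 rose, with a median of -0.52 (0.33 after the poly-A shift) and sums of 4806 to 5239 on UAS-jumu arrays and 7697 to 7709.8 on controls. The sums over the 7 visceral genes were 9369.7 to 9998 on UAS-jumu arrays and 7834 to 8418 on controls. Linear sums weigh the brightest genes most, here mib2 and Con, whose mean log2 signals over the 6 arrays were 12.05 and 11.33. These sums therefore say little about jeb or org-1, and the mib2 arrays overlapped between genotypes. In sorted bulk samples, fewer cells of a type and less RNA per cell cannot be told apart.

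The muscle, heart, endoderm and blood cell lists were mixed. The somatic muscle list shares sns, kirre, rst and blow with the trunk visceral list, so the rise of sns is counted in both. Of 13 somatic muscle genes 3 rose (rols, sns and lmd) and 2 fell (Argk1 and Mlp60A). Their median was 0.39 (0.22 without UAS-jumu replicate 3, 1.30 after the poly-A shift). Their sums were 42349 to 43501 on UAS-jumu arrays and 44096 to 44187 on controls. Of 14 heart genes 0 passed by limma (at an unadjusted p under 0.05, 3 were higher and 2 lower). Their median was 0.01 (-0.02 in the values as deposited, -0.08 to 0.08 without 1 array). It was 0.25, 0.55 and 0.90 under median centring and the hybridization and poly-A shifts. The heart sums were 10840.4 to 12097 on UAS-jumu arrays and 9099.7 to 9791 on controls. In the endoderm list 1 of 5 fell (hkb) and 0 rose, with a median of -0.22 that turned positive under median centring and both spike-in shifts. Its sums were 8544 to 9147 on UAS-jumu arrays and 7124 to 7735 on controls. They rest mostly on srp, also in the blood cell list, at 12.79 in UAS-jumu arrays and 12.28 in controls. The other 4 endoderm genes had negative changes. In the blood cell list 2 of 10 fell (PPO1 and Pxn) and 0 rose, 7 had a positive change, and 6 were called higher and 2 lower with the intensity trend. Its median was 0.44 (1.37 after the poly-A shift), and its sums were 20685 to 20919 on UAS-jumu arrays and 22353 to 22669.8 on controls. The hemocyte genes Hml, He and NimC1, dim in controls, had the largest positive differences of the list: their log2 signals were 7.99 ± 0.07, 6.65 ± 0.18 and 6.25 ± 0.36 in UAS-jumu arrays, against 3.13 ± 2.17, 1.69 ± 1.67 and 3.66 ± 1.99 in controls (SD, n = 3 each; limma adjusted p = 0.105, 0.0646 and 0.275).

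The genes most like jeb, org-1 and Alk over the 6 arrays were sought among 7389 genes above the median level, by Pearson's r of log2 signals. For jeb these were fs(2)ltoPP43, Rcd1 and bs (serum response factor), all with r of 0.994. For org-1 they were CG10376, Paip1 and CG15160, with r of 0.997, 0.997 and 0.996. The 6 genes had smaller changes than the genes they resemble, from 0.35 for CG15160 to 0.62 for bs, and 0 of them passed the limma threshold (adjusted p 0.0734 to 0.136). With 6 arrays in 2 genotypes, r mixes the difference between genotypes with the spread within them. For Alk the closest were Taf9, CG43673 and Marf1 (r of 0.988, 0.981 and 0.979), whose changes were 0.00, -0.09 and 0.01, so their likeness to Alk lies in the spread within genotypes, which is wide for this dim probe set.

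The neighbours on the chromosome were a comparison chosen after values were seen. With 1 gene on each side it cannot tell whether a run of changed genes is present. For each of the 7 genes the nearest measured gene on either side in the Release 6 gene table was taken, 14 in all. Of these, 1 passed the limma threshold, which 3.32% of all genes passed. It went in the opposite direction to its neighbour: CG18343, beside jeb, fell by 1.06 ± 0.11 (SE, adjusted p = 0.0307). Both genes beside bap had positive changes, mod(mdg4) with 0.20 and Ugt49B2, a dim gene, with 1.58 (limma adjusted p = 0.441 and 0.504). The nearest measured genes beside org-1, CG12123 and CG15347, had changes of 0.08 and -0.68 (adjusted p = 0.894 and 0.155).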

How the data were processed

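The authors used the Bioconductor package affy, per the submitters' processing notes. Which version, background correction, normalization and probe summary they chose is not given in the sources used here. Deposited values were taken as log2 signals per probe set, a base read from their range of -1.73 to 16.4. Array medians were 5.09 to 5.43 in the UAS-jumu group and 5.38 to 5.64 in controls, so quantile normalization was applied. Of 18952 probe sets, 183 Affymetrix controls were left out. A total of 13647 probe sets had 1 gene, 402 several and 4720 none. Symbols were updated by gene identifier (13544 matched), and the probe set with the highest mean stood for a gene. The deposited files name no build, so the Release 6 gene table gave names and neighbours but no coordinates.

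Tests used limma 3.58.1 in R 4.3.3 with its lmFit and eBayes functions, two-sided and without covariates; p-values were adjusted by Benjamini-Hochberg over 18769 probe sets, with a threshold of 0.05. Array number limits the precision. In simulated data of that size, 22 of 57 changes of 1 log2 unit above the median level were recovered, and 37 with the intensity trend. The median level was a log2 signal of 5.00, so this count pools dim and bright probe sets. It does not give the recovery for any 1 of the genes named here. The genes, lists and tests were chosen with earlier results of these data known. Named were the 7 genes, jumu, and the 4 smallest p and any gene past the threshold in each visceral or Alk list. Up to 3 genes past it in each other list were named, with lmd and Mlp60A in somatic muscle beyond that limit. The 3 genes most alike to jeb, Alk and org-1 were named too. Markers, Hand, miple1, miple2, betaTub60D, Vrp1, Hml, He, NimC1 and the neighbours were added after their values were seen. Same-numbered arrays did not deviate together, with correlations of -0.03 to 0.02. Promoter motifs were not searched.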

Additional observations from a re-analysis of the deposited data

How the results depend on the processing

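Over 23 alternatives jeb, org-1, bap, HLH54F, Con and mib2 kept a positive change; Alk did not, at -0.11 without further normalization. The 0 genes of the 7 past the threshold became 1 without further normalization (jeb, 1.43), 6 with the poly-A shift (jeb 2.35, org-1 1.95, bap 1.45, HLH54F 1.36, Con 1.19, mib2 1.06) and 2 with 1 value per gene (jeb 1.59, org-1 1.05), where fewer features are tested. They became 5 with dim probe sets left out, with the intensity trend, and with that trend and the replicate block (jeb 1.59, org-1 1.05, bap 0.51, HLH54F 0.42, Con 0.23 in each). With the trend and median centring they were 5 too (jeb 1.70, org-1 1.30, bap 0.80, HLH54F 0.71, Con 0.53).

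Leaving out 1 array gave 0 of 7 in the reported test and 4 to 6 with the trend. The changes then ran from 1.41 to 1.84 for jeb, -0.99 to 1.02 for Alk, 0.94 to 1.16 for org-1, 0.39 to 0.63 for bap, 0.35 to 0.51 for HLH54F, 0.22 to 0.25 for Con and 0.078 to 0.19 for mib2. With the trend bap was lost without UAS-jumu replicate 1 (adjusted p = 0.0571) and mib2 passed without control replicate 2 (adjusted p = 0.0481).

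The 519 probe sets past the threshold (255 higher, 264 lower) became 20 with median centring and 31 with the hybridization shift, all higher, 7425 with the poly-A shift (98.3% higher), 2580 with dim probe sets left out, 3096 with the trend, 2357 with trend and median centring (86.7% higher) and 2955 with trend and replicate block. Leaving out 1 array gave 0 to 21 in the reported test (0 without UAS-jumu replicate 1, 21 without control replicate 2) and 2537 to 2794 with the trend. With the replicate block alone 0 passed, and jeb and org-1 had adjusted p of 0.254 and 0.245. Same-numbered arrays did not deviate together, but the labels do not say whether they were collected together. The jumu transcript itself missed the threshold with median centring, with the block alone and when any 1 array was left out (adjusted p 0.0628 to 0.104 for the last). The trend fits with a left-out array, median centring or the block were chosen after seeing the data. The cause of these differences was not tested.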
